A study of Mus musculus with 6 samples.

Results

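The genes described here are those of the aquaporins and of the vasopressin V2 receptor, chosen by name. Of the 9 genes named (Aqp1, Aqp2, Aqp3, Aqp4, Aqp6, Aqp7, Aqp8, Aqp11 and Avpr2), 8 were found among the 19176 rows of the table, and Aqp8 had no row and was not analysed here. RNA was sequenced from renal cortex, a mixed tissue of tubular and interstitial cells, of wild-type C57BL/6J mice on day 14 after unilateral ischemia-reperfusion injury (UIRI). Cortex is the tissue given by the labels, and the methods name only kidney tissue. The UIRI group held 3 mice given vehicle (ethanol in saline) by daily intraperitoneal injection, and the UIRI + BA group held 3 mice given BA at 1 mg/kg each day, each mouse giving 1 library. BA is a quassinoid of Brucea javanica that the labels spell Brucine A and the methods Bruceine A. According to the methods, the mice were males aged 8 weeks when bought, the left renal pedicle was clamped, and the right kidney was removed on the day before the tissue was taken. All 6 libraries therefore come from injured kidneys, and sham kidneys were not analysed here. The libraries held 16510720 to 38124164 reads on genes, and UIRI replicate 3 was the deepest.

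Aquaporins are membrane channels that let water, and in some members glycerol, pass along a gradient. The kidney reabsorbs most filtered water through Aqp1 in the proximal tubule and the thin descending limb. It adjusts the rest in the principal cells of the collecting duct. There vasopressin binds its V2 receptor (Avpr2), which raises cyclic AMP, moves Aqp2 into the apical membrane and raises transcription of the Aqp2 gene, while Aqp3 and Aqp4 let the water leave through the basolateral membrane. Loss of Aqp2 or Avpr2 function causes nephrogenic diabetes insipidus, and less Aqp2 with a weaker urine concentration is well known after renal ischemia.

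The plot of normalized counts by library shows every value for the 8 genes. A normalized count is the number of reads on a gene divided by a size factor of its library, and it can be compared between libraries but not between genes. In GENCODE release M21 on build GRCm38, the genes lie on chromosomes 4, 6, 7, 15, 18 and X, and the gene symbol alone ties these positions to the measured rows. Aqp3 (41092722 to 41098183) and Aqp7 (41033074 to 41048139) are neighbors on the minus strand of chromosome 4. Aqp2 (99579055 to 99584547) and Aqp6 (99601400 to 99605477) flank Aqp5 on the plus strand of chromosome 15.

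**Figure D1:**
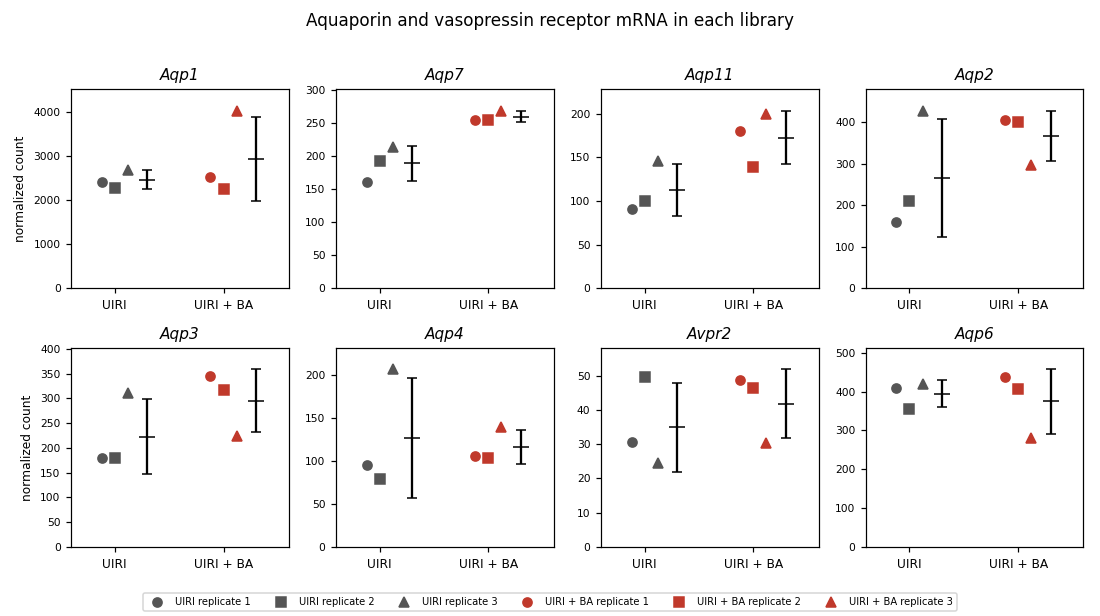
Normalized counts (linear axes starting at 0) of 8 genes in 3 UIRI libraries (grey) and 3 UIRI + BA libraries (red), with the mean and SD of each group beside the points. For Aqp7 the 3 UIRI + BA libraries, at 255 to 269, sit above the 3 UIRI libraries, at 161 to 214, while in each of the other genes the groups overlap.

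The stretches just before the start sites of Aqp2 and Aqp3 are shown because these principal cell genes had similar values across the libraries (described below) and because Aqp2 is the classical transcriptional target of vasopressin. The sequences are from RefSeq on GRCm38.p6 and end at the last base before the annotated exon, which leaves 249 bases for Aqp2 (chr15:99578806-99579054, plus strand) and 250 bases for Aqp3 (chr4:41098184-41098433, minus strand). Capitals mark matches to 3 patterns searched on both strands, the core of a cyclic AMP response element (TGACGT), the motif of GATA factors (AGATAA) and the TATA box (TATAAA). In Aqp2 the first and the second pattern stand as their reverse complement.
Aqp2: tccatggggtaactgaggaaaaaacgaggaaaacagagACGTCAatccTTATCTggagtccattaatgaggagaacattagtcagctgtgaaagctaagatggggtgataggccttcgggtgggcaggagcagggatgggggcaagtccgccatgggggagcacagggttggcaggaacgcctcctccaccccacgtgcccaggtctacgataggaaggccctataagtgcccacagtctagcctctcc
Aqp3: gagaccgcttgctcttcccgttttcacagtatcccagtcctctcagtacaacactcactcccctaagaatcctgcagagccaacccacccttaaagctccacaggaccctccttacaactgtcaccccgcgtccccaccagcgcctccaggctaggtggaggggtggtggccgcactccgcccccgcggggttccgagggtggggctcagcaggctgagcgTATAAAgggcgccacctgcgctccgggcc
The Aqp2 window holds the response element core from -212 to -207 and the GATA motif from -202 to -197, counted back from the RefSeq start site, and the marked stretches share no base. The Aqp3 window holds TATAAA from -29 to -24. Among 32851 promoter windows of 250 bases, TGACGT was found in 6.47%, AGATAA in 9.99% and TATAAA in 12.4%. RefSeq windows were found for 8 of the 9 genes named, and among the genes measured the first pattern was found in Aqp2, the second in Aqp2 and Aqp7 and the third in Aqp3 and Avpr2. A match of letters is a description of the window and not a measured binding site.

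The libraries were used to ask how much mRNA of each gene was present, whether the UIRI + BA group differed from UIRI, and whether a gene differed apart from other genes of its tubule segment. Levels of different genes were compared per kilobase of annotated exon. Aqp1 was the most abundant, at 942 ± 78.6 normalized counts per kilobase (SD, n = 3) in UIRI, against 1121 ± 366 (SD, n = 3) in UIRI + BA. The next 3 genes were Aqp2 (187 ± 100.5), Aqp6 (163 ± 14.4) and Aqp3 (122 ± 41.4) in UIRI, whose ranges overlapped. In UIRI + BA the same 3 were at 259 ± 43.1, 155 ± 34.2 and 161 ± 34.8 normalized counts per kilobase. Aqp7 lay below them at 66.9 ± 9.47 in UIRI, against 91.9 ± 2.82 in UIRI + BA. Aqp4, Avpr2 and Aqp11 were the lowest, at 20.4 ± 11.2, 12.1 ± 4.50 and 11.9 ± 3.16 normalized counts per kilobase in UIRI. In UIRI + BA these were at 18.7 ± 3.24, 14.5 ± 3.49 and 18.4 ± 3.28, so the order among the lowest genes is not settled by the spread. The annotated exons of Aqp11 add up to 9418 bases and those of Aqp4 to 6233, against 1419 for Aqp2, so the level per kilobase of the first pair would be higher if shorter transcripts are the ones made.

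Between UIRI and UIRI + BA, 6 of the 8 genes were higher with BA and 2 were lower (median log2 fold change 0.36), where 48.9% of all rows were higher and their median was -0.01. With limma on all 19176 rows (log2 of the normalized count plus 1, Benjamini-Hochberg adjustment), 0 of the 8 genes had an adjusted p below 0.05, and neither had any other row (0%). At an unadjusted p below 0.05 there were 2 of the 8, Aqp7 and Aqp11, both higher with BA, where 10.3% of all rows reached this p and 5.67% did so on the higher side and 4.61% on the lower. On the recovered reads, edgeR's quasi-likelihood test gave 0 of the 8 an adjusted p below 0.05, and DESeq2 gave 0 of the 7 for which it returned one (none for Avpr2). Both tests had the same pair at an unadjusted p below 0.05. DESeq2 called 1.49% of the 14340 rows that received an adjusted p and 7.88% by unadjusted p. edgeR called 0% by adjusted p, and by unadjusted p 9.93% with its filter on low counts and 9.68% without it. Groups without overlap were seen in 1 of the 8 genes, against 14.4% of all rows (7.45% higher and 6.96% lower with BA). Tissue of mixed cells was sequenced, so more cells of a type and more RNA per cell cannot be told apart. The 3 libraries of a group are separate mice, and an exact permutation test of 3 against 3 cannot give a p below 0.1.

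**Figure D2:**
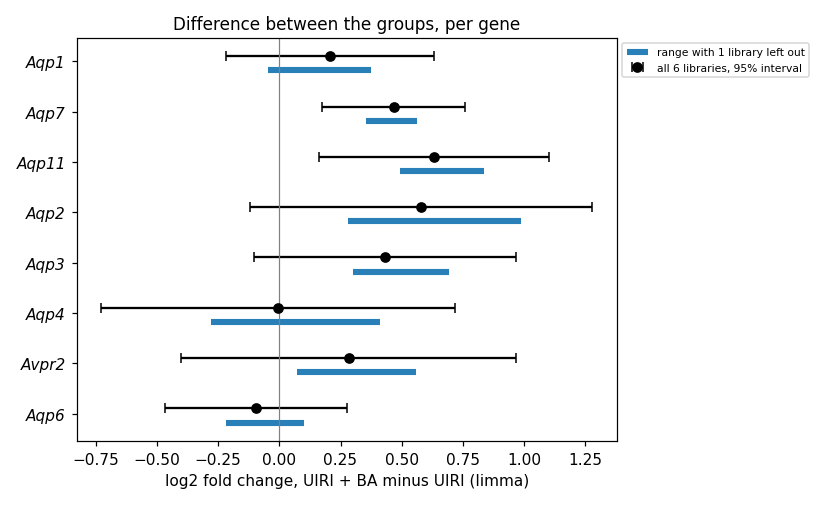
Log2 fold change of each gene with BA (x axis, limma), with its 95% confidence interval (black) and the range over the 6 fits that leave out 1 library (blue). The intervals of Aqp7 (0.17 to 0.76) and Aqp11 (0.16 to 1.10) lie above 0, unadjusted for the number of genes tested, and those of the other 6 genes include 0.

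Among the proximal tubule genes, Aqp7 and Aqp11 were higher with BA, though not at an adjusted p below 0.05, and Aqp1 differed by less than the spread of the libraries. Aqp7 is an aquaglyceroporin of the straight part of the proximal tubule that takes glycerol back from the filtrate. Its normalized counts were 161, 192 and 214 in UIRI, against 256, 255 and 269 in UIRI + BA, in the order of replicates 1 to 3 as for the genes that follow. The groups did not overlap, and the 3 UIRI + BA libraries lay close together. The mean was 189 ± 26.8 (SD, n = 3) in UIRI, against 260.0 ± 7.98 (SD, n = 3) with BA, for a log2 fold change of 0.47 (standard error 0.13), or 1.38-fold. The adjusted p from limma was 0.312 (unadjusted 0.00558), and the exact two-sided permutation test gave p = 0.1. Without any 1 library the log2 fold change stayed between 0.36 and 0.56.

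Aqp11 encodes an intracellular aquaporin of the endoplasmic reticulum of proximal tubule cells, and mice without it develop vacuoles and cysts there. Its normalized counts were 90.6, 100.1 and 146 in UIRI, against 180.4, 139 and 199 in UIRI + BA. UIRI replicate 3 lay above UIRI + BA replicate 2, so the groups overlapped by this pair of libraries. The mean was 112 ± 29.7 (SD, n = 3) in UIRI, against 173 ± 30.9 (SD, n = 3) with BA, for a log2 fold change of 0.63 (standard error 0.21). This was the largest difference among the 8 genes, 1.55-fold, with an adjusted p of 0.389 from limma (unadjusted 0.0139). Its 95% interval ran from 0.16 to 1.10. With each library left out it was between 0.50 and 0.84, and its unadjusted p was 0.0558 without UIRI + BA replicate 3 and 0.0547 without UIRI replicate 1.

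Aqp1 is the constitutive water channel of the proximal tubule, the thin descending limb and the endothelium of descending vasa recta, and it is also a protein of red blood cells. Its normalized counts were 2430.1, 2293 and 2699 in UIRI, against 2539, 2249.7 and 4042 in UIRI + BA. UIRI + BA replicate 3 stood apart from the other 5 libraries, which lay within 2249.7 to 2699. The log2 fold change was 0.21 (standard error 0.19, 95% interval -0.22 to 0.63), with an adjusted p of 0.703 from limma. Without UIRI + BA replicate 3 it was -0.05, so its direction rests on that library. The values of Aqp1 rest on at least 2027 reads per library, a counting error of 2.22%, so depth does not limit this comparison.

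Markers of the proximal tubule, where these 3 genes are expressed, were higher with BA. All 15 markers (the most abundant was Slc34a1, a phosphate cotransporter) were higher with BA, 15 of 15 at an unadjusted p below 0.05 (10.3% of all rows) and 0 at an adjusted p below 0.05 from limma, with a median log2 fold change of 0.77. Without UIRI replicate 3, 15 of the 15 had an adjusted p below 0.05, against 5.02% of all rows, and without any other 1 library 0 had. The list was chosen with earlier results of these libraries known and is no independent evidence. The summed normalized count of the list was 29909 to 49099 in UIRI, against 52505 to 62531 in UIRI + BA, and no marker was at 0. Set against the mean log2 value of this list within each library, Aqp11 was nearly constant, at -3.52, -3.43 and -3.67 in UIRI, against -3.66, -3.80 and -3.55 in UIRI + BA. The difference between groups for Aqp11 on this scale was -0.13, in place of 0.63 for the gene alone. On the same scale Aqp1 was at 1.21, 1.07 and 0.52 in UIRI, against 0.15, 0.20 and 0.78 in UIRI + BA, a difference of -0.56 with overlapping groups (exact permutation p = 0.2). Aqp7 was set against 7 markers of the straight tubule (the most abundant was Atp11a), whose own median log2 fold change was 0.29. Of these markers 5 were higher and 2 lower with BA, and the least abundant, Slc22a7, had 7 to 27 reads per library. Each marker counts equally in the mean of the list. Relative to it, Aqp7 lay at -0.93, -0.60 and -0.80 in UIRI, against -0.26, -0.50 and -1.29 in UIRI + BA, which overlap. The group difference was 0.09 with the mean of the list and -0.48 with its median, and leaving out UIRI + BA replicate 1 or 3 gave -0.12 or 0.39. UIRI + BA replicate 3 had the highest straight tubule value, a mean log2 of 9.37 against 8.20 to 8.55 in the other 5 libraries. This is the library in which Aqp1 was high, and its part in the result was not tested.

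**Figure D3:**
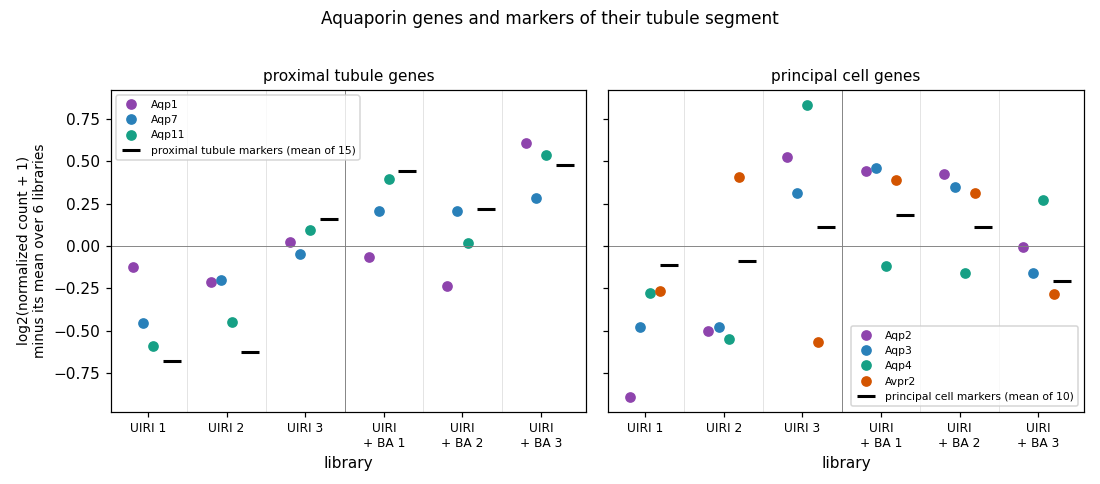
Log2 normalized count (plus 1) of each gene minus its own mean over the 6 libraries (y axis, log2 units), by library (x axis), for proximal tubule genes (left) and principal cell genes (right). Black bars are the mean of the markers of that segment. Aqp11 follows the bars of the 15 proximal tubule markers, Aqp2 and Aqp3 are low in UIRI replicates 1 and 2, and Aqp4 and Avpr2 lie on opposite sides in UIRI replicate 3.

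Among the principal cell genes, the mean cortex levels of Aqp2 and Aqp3 were higher with BA, but the groups overlapped and neither passed the test. Aqp2 is the apical, vasopressin-regulated channel. Its normalized counts were 159.7, 209 and 428 in UIRI, against 405, 399.5 and 296 in UIRI + BA. UIRI replicates 1 and 2 were the lowest libraries, and UIRI replicate 3 was the highest of the 6. The mean was 266 ± 143 (SD, n = 3) in UIRI, against 367 ± 61.1 (SD, n = 3) with BA, for a log2 fold change of 0.58 (standard error 0.31, 95% interval -0.12 to 1.28). The adjusted p was 0.546 from limma. The size of this difference moved with single UIRI libraries: the log2 fold change of Aqp2 was 0.99 without replicate 3 and 0.28 without replicate 1.

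Aqp3, the basolateral channel that carries water and glycerol, had normalized counts of 179, 179 and 310.0 in UIRI, against 345, 318 and 223 in UIRI + BA. As for Aqp2, UIRI replicates 1 and 2 were the lowest, UIRI replicate 3 lay among the UIRI + BA libraries, and UIRI + BA replicate 3 was the lowest of its group. The log2 fold change of Aqp3 was 0.43 (standard error 0.24, adjusted p 0.551 from limma), with a 95% interval of -0.10 to 0.97. With each library left out it ran from 0.30 to 0.69, the highest without UIRI replicate 3 (adjusted p 0.0557). Between Aqp2 and Aqp3 the log2 difference within a library ran from -0.16 to 0.46, with an SD of 0.22 over the 6 libraries. Among all pairs of the 8 genes, Aqp7 and Aqp11 had the smallest such SD (also 0.22 when rounded) and Aqp2 and Aqp3 the next. Aqp3 is also made by urothelium, the lining of the renal pelvis and bladder. Of 9 urothelium markers 8 were in the table, 7 of them lower with BA, and none was at 0 in all libraries. Their mean log2 values were 5.04, 5.02 and 6.65 in UIRI, against 3.30, 3.40 and 6.07 in UIRI + BA, and the summed normalized counts, mostly the keratin gene Krt20 (log2 fold change 0.41), were 1251 to 1622 in UIRI, against 1268 to 1880.4 in UIRI + BA. The sum is thus mainly the value of Krt20, the 1 marker that was higher with BA, and does not stand for the other 7. By their mean log2 values, the urothelium markers were low in UIRI + BA replicates 1 and 2, where Aqp3 was highest. They were high in UIRI replicate 3, where Aqp3 was also high, and their part in the values of Aqp3 was not tested.

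Aqp4 is the second basolateral channel of principal cells and does not carry glycerol. Its normalized counts were 95.2, 78.7 and 207 in UIRI, against 106, 103 and 139.8 in UIRI + BA. UIRI replicate 3 was by far the highest, and the other 5 libraries lay between 78.7 and 139.8. The log2 fold change of Aqp4 was -0.005 (standard error 0.32), and limma gave an adjusted p of 0.997. Its 95% interval, -0.73 to 0.72, leaves room for differences of either sign, and without UIRI replicate 3 the value was 0.41.

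Avpr2 encodes the V2 receptor, and its normalized counts were 30.6, 49.5 and 24.6 in UIRI, against 48.9, 46.3 and 30.3 in UIRI + BA. The lowest and the highest libraries were both of the UIRI group. The log2 fold change was 0.28 (standard error 0.30, 95% interval -0.40 to 0.97), with an adjusted p of 0.743 from limma. It was 0.07 without UIRI replicate 3 and 0.56 without UIRI replicate 2. Only 27 to 45 reads per library lie behind these values, so counting alone gives an error of 19.2% in the shallowest case. The exons of Avpr2 also overlap those of Arhgap4 on the opposite strand over up to 1295 bases, and Arhgap4 was the stronger gene of the pair (mean normalized count 702). The labels describe a strand-specific kit, but whether strand was used in counting is not given in the sources used here, so reads of this pair may be mixed.

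Of the principal cell, 10 markers other than aquaporins were measured, the most abundant of them Npnt, an extracellular matrix protein. Their median log2 fold change was 0.02, with 7 higher and 3 lower with BA, and 0 of the 10 had an unadjusted p below 0.05. The list averaged, on the log2 scale, 8.98 to 9.20 in UIRI, against 8.88 to 9.27 in UIRI + BA, lowest in UIRI + BA replicate 3. Set against this list, Aqp2 was at -1.65, -1.29 and -0.46 in UIRI, against -0.61, -0.56 and -0.67 in UIRI + BA. The 3 UIRI + BA libraries were nearly equal on this scale (SD 0.05, against 0.61 in UIRI), and the group difference was 0.52, with UIRI replicate 3 above them (exact permutation p = 0.4). It was 0.26 without UIRI replicate 1 and 0.86 without UIRI replicate 3. The relative values of Aqp3 were -1.48, -1.51 and -0.92 in UIRI, against -0.84, -0.89 and -1.07 in UIRI + BA, a difference of 0.37 with overlapping groups (0.56 without UIRI replicate 3). For Aqp4 and Avpr2 the group differences on this scale were -0.06 and 0.22, and the groups overlapped. With each library left out, the relative difference ran from -0.32 to 0.28 for Aqp4 and from -0.06 to 0.53 for Avpr2, so neither direction held.

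**Figure D4:**
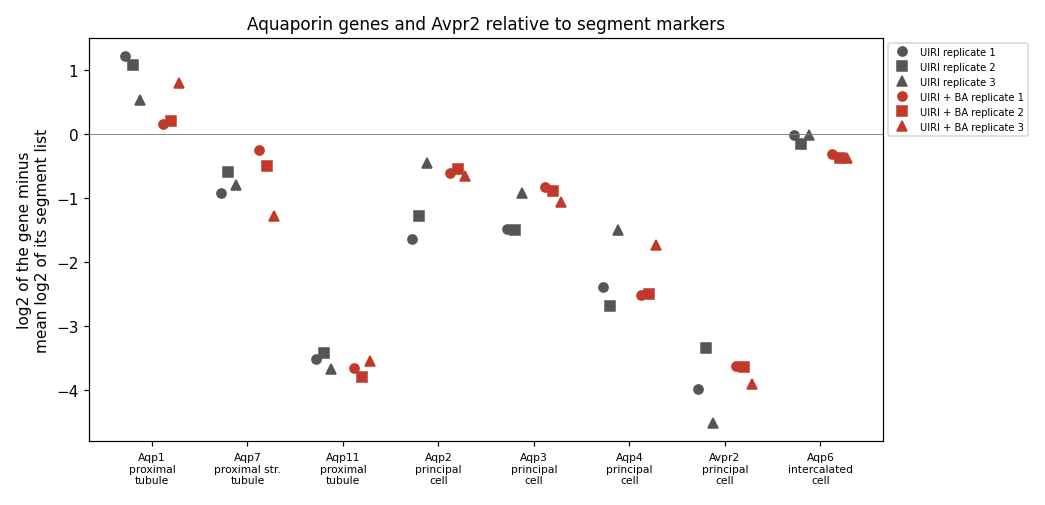
Log2 normalized count (plus 1) of each gene minus the mean log2 value of the marker list named under it (y axis, log2 units), with 1 point for each library of UIRI (grey) and UIRI + BA (red). For Aqp6 the 3 UIRI + BA libraries lie below the 3 UIRI libraries, and in the other 7 genes the groups overlap. Before the list mean was subtracted, the groups overlapped for Aqp6 too, and 14.4% of all rows had groups without overlap. No such share was computed for the scale shown here.

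Aqp6 is a channel of the intracellular vesicles of acid-secreting intercalated cells and conducts anions as well as water. Its normalized counts were 410.1, 354 and 418 in UIRI, against 437, 406 and 281 in UIRI + BA, and UIRI + BA replicate 3 was the lowest library. The log2 fold change was -0.10 (standard error 0.16, 95% interval -0.47 to 0.28), with an adjusted p of 0.845 from limma, and it was 0.10 without UIRI + BA replicate 3. The 10 intercalated cell markers (the most abundant was Atp6v1b1, a proton pump subunit) had a median log2 fold change of 0.21, with 8 higher and 2 lower with BA. At an unadjusted p below 0.05 there were 2 of the 10, against 10.3% of all rows. They were Slc26a4, which encodes pendrin of base-secreting intercalated cells (0.53), and Atp6v0d2, another proton pump subunit (-0.20). Against the mean of this list Aqp6 was at -0.01, -0.17 and -0.02 in UIRI, against -0.32, -0.38 and -0.38 in UIRI + BA. The groups did not overlap on this scale (difference -0.29), and the exact permutation p was 0.1, the smallest possible here. With the median of the list in place of its mean the difference was -0.18. The list is not limited to acid-secreting cells, and the part of this in the difference was not tested.

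The libraries of a group were not alike in these genes. UIRI replicate 3 was the highest UIRI library for 7 of the 8 genes, all but Avpr2, where it was the lowest; over all rows it was the highest for 41.0%. UIRI + BA replicate 3 was the highest of its group for Aqp1, Aqp4, Aqp7 and Aqp11 and the lowest for Aqp2, Aqp3, Aqp6 and Avpr2. Over all rows it was the highest of its group for 30.6% and the lowest for 31%. Without UIRI replicate 3, limma gave an adjusted p below 0.05 to 3 of the 8 genes, Aqp2 (0.0194), Aqp7 (0.0407) and Aqp11 (0.0364), where 5.02% of all rows were called. In the fit without UIRI replicate 1 the adjusted p of each of these 3 genes was 0.9995. At an unadjusted p below 0.05 the fit without UIRI replicate 3 held 4 of the 8, the same 3 and Aqp3, against 25.2% of all rows. The fit without UIRI replicate 1 held 1, Aqp7, against 4.21%. No label marks UIRI replicate 3 as a different sample.

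For 7 of the genes, all with mean normalized counts not under 100, the rows with the most similar values over the 6 libraries were found by the root-mean-square distance of centred log2 values among 12647 other rows. Nearest to Aqp7 were Slc2a2 (distance 0.04 on the log2 scale), which encodes a basolateral glucose transporter of the proximal tubule, Clrn3 and Chpt1. Nearest to Aqp11 were Cndp1 (0.06), a secreted dipeptidase, Aass, an enzyme of lysine breakdown, and Iyd. Aqp1 was most similar to Gm15638 (0.09), Ppp1r1b and Fgf1, and Aqp6 to Pigr (0.07), Map3k9 and Cnnm4. For Aqp2 the nearest rows were Ces1e (0.14), Fgg and Prkaa2, and Aqp3 ranked 5 among all rows. Aqp3 itself lay nearest to Abca13 (0.06), Gm44120 and Ptgfr, with Aqp2 at rank 90. Aqp4 lay nearest to Thbs1 (0.12), Dusp10 and Hbegf.

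Genes that carry or limit the vasopressin signal to Aqp2, or act on Aqp2 itself, were measured as well. The medians of these lists lay near that of all rows. The signaling list mixes genes that pass the signal on with genes that end or oppose it, such as phosphodiesterases and arrestins. Its median in whole cortex is therefore no measure of the signal in principal cells. Of 21 signaling genes, 10 were higher with BA and 11 lower (median log2 fold change -0.01), and 0 had an adjusted p below 0.05 from limma. At an unadjusted p below 0.05 there were 2 of the 21, against 10.3% of all rows. They were Rapgef3, a cyclic AMP sensor (log2 fold change 0.21), and Ptger4, a prostaglandin E2 receptor (-0.20). Adcy6, the main adenylyl cyclase behind the V2 receptor, was at a log2 fold change of 0.16 (standard error 0.08, unadjusted p 0.0823 from limma). Gnas, the stimulatory G protein, was at 0.05, in a locus with overlapping transcripts where counts are uncertain, and Prkaca, the catalytic subunit of protein kinase A, at -0.03. Of 20 genes for the trafficking and turnover of Aqp2, 13 were higher and 7 lower with a median of 0.03. Under an unadjusted p of 0.05 were 2 of the 20, Hspa8, a chaperone that binds Aqp2 (0.31), and Myo5b, a vesicle motor (0.30). Of 17 transcription factors tied to the Aqp2 gene, 9 were higher and 8 lower with a median of 0.00. Nr1h4, the bile acid receptor FXR, was the 1 of the 17 at an unadjusted p below 0.05 (0.32). The counts in these lists were near or below the 10.3% of all rows.

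Genes for the response to high tonicity and for urea transport, which share the task of concentrating urine, were counted next. Of 12 genes 11 were in the table, 7 higher and 4 lower with BA (median log2 fold change 0.17), and limma gave 0 of them an adjusted p below 0.05. At an unadjusted p below 0.05 there were 5, where 10.3% of all rows reached it: Slc6a6, a taurine transporter (0.33), the heat shock genes Hspa4l (0.35), Hspa1a (0.52) and Hspa1b (0.38), all higher, and Slc14a1, a urea transporter of descending vasa recta (-0.61). Slc14a2, the urea transporter of inner medullary collecting duct and thin limb, had normalized counts of 556 ± 295 (SD, n = 3) in UIRI, against 298 ± 181 (SD, n = 3) in UIRI + BA. Its log2 fold change of -0.92 had a standard error of 0.53, and it was -0.40 without UIRI + BA replicate 2 and -1.45 without UIRI replicate 2. The 5 thin limb markers, which share Slc14a2, had a median log2 fold change of -0.25, and their mean log2 values were 7.65, 6.83 and 8.16 in UIRI, against 6.99, 6.63 and 7.63 in UIRI + BA. These medullary markers differed between libraries of 1 group, and their part in the values of Aqp1 and Aqp2 was not tested. Without UIRI + BA replicate 1, 0 of the 11 concentrating genes reached an unadjusted p below 0.05, against 6.62% of all rows, and without UIRI replicate 3 there were 7, against 25.2%.

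Other aquaporin genes looked for were Mip, Aqp5, Aqp9 and Aqp12, of which 2 were in the table. Aqp9, an aquaglyceroporin of liver and leukocytes, had normalized counts of 245, 274 and 186 in UIRI, against 129, 167 and 184 in UIRI + BA. These groups did not overlap, though UIRI replicate 3 and UIRI + BA replicate 3 were nearly equal. The log2 fold change of Aqp9 was -0.55 (standard error 0.18, adjusted p 0.389 from limma, unadjusted 0.0146), opposite in sign to that of Aqp7. Its adjusted p from limma was 0.0452 without UIRI replicate 3, where 5.02% of all rows were called. All 7 leukocyte markers, led by Lyz2, were lower with BA (median log2 fold change -0.26, from -0.33 to -0.01). Of these, 1 had an unadjusted p below 0.05, against 10.3% of all rows. Without UIRI + BA replicate 3, 2 of the 7 were higher. In the fit without UIRI replicate 3, 0 of the 7 were higher. That fit held 4 of them at an unadjusted p below 0.05, against 25.2% of all rows. At an adjusted p below 0.05 it held 2, against 5.02%. No marker was at 0. Their mean log2 values were 10.73, 10.69 and 10.43 in UIRI, against 10.41, 10.62 and 10.20 in UIRI + BA, which overlap. Their part in the values of Aqp9 was not tested. Aqp5 had 8 to 23 reads per library in UIRI, against 2 to 6 in UIRI + BA, too few for a reliable size. The medians of markers of red blood cells (log2 fold change -0.14), endothelium (-0.02) and thick ascending limb (0.09) were near 0. Of the 8 thick limb markers, 1 had an unadjusted p below 0.05, Egf (0.53), against 10.3% of all rows. Of 6 skeletal muscle markers 2 were in the table (median 0.25), and none of 7 adipose markers had a row.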

How the data were processed

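Renal cortex RNA of 6 libraries was analysed, 3 in each group, as read from the library labels. The methods name HISAT2 for alignment, FeatureCounts for counting and DESeq2 for testing. The build and annotation are not given in the sources used here. The authors deposited a signal for each gene and library, the read count over the library's size factor. Since 100% of values were whole multiples of 1 step (tolerance 0.01), reads could be recovered. The authors' own fold changes, p-values and enrichment tables were deposited too and were not used.

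limma 3.58.1 (R 4.3.3) was run on log2 of the value plus 1 with an intensity trend, all rows and no covariate. edgeR 4.0.16 and DESeq2 1.42.0 on recovered reads were alternatives, beside a pseudocount of 0.1, a mean of at least 10, quantile and upper quartile scaling, a replicate block and each library left out. The fits were tested on simulated counts with a dispersion of 0.03 and changes of 1 or 2 log2 units. There limma recovered 89.3% of the changes of 1 unit and 100% of those of 2, with 5 false calls. Changes as small as those of the genes described here were not simulated, nor was a library unlike the others of its group. Segment values, lists and distances were computed with pandas 2.3.3. Named were the genes of the set, pathway list genes at an unadjusted p below 0.05, Gnas, Adcy6 and Prkaca, the most abundant gene of the main marker lists, the other aquaporins present and the 3 nearest rows of each gene with a mean of at least 100. Slc14a2, Slc26a4, Atp6v0d2, Arhgap4, Slc22a7 and Egf were named after their values were seen. The genes and lists were chosen with earlier results of these data known.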

Additional observations from a re-analysis of the deposited data

How the results depend on the processing

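The count of genes at an adjusted p below 0.05 was 0 under every alternative except without UIRI replicate 3 (of 7 genes by DESeq2, which returned none for Avpr2, and of 8 otherwise), so it ran from 0 to 3 with each library left out. The count at an unadjusted p below 0.05 ran from 1 to 4 in those fits and was 2 under the others. The count of genes higher with BA ran from 6 to 7 over all alternatives. Directions turned for 3 genes. Aqp1 was at -0.0466 without UIRI + BA replicate 3, in a range of -0.0466 to 0.376 with each library left out, and Aqp6 ranged from -0.219 to 0.0994. Aqp4 was at 0.00507 with quantile normalization and ranged from -0.280 to 0.412 with each library left out. The cause was not tested. Over the other 8 alternatives the log2 fold change ran from 0.45 to 0.48 for Aqp7, 0.59 to 0.66 for Aqp11, 0.43 to 0.58 for Aqp2 and 0.38 to 0.45 for Aqp3.

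Groups share replicate numbers, but same-numbered libraries did not all deviate together from their group means (correlations over 17249 genes of -0.24, 0.30 and 0.16), and UIRI replicate 1 was closest to UIRI + BA replicate 2. With the replicate block, 0 of the 8 genes had an adjusted p below 0.05, 2 an unadjusted p below 0.05 and 6 were higher with BA, and over all rows 6 had an adjusted p below 0.05 where 0 had without it. Over all rows, 213 had an adjusted p below 0.05 by DESeq2 and 962 without UIRI replicate 3, and the 1971 rows at an unadjusted p below 0.05 became 808 without UIRI replicate 1, 1270 without UIRI + BA replicate 1 and 4838 without UIRI replicate 3. Set against the median of the segment list in place of its mean, the difference was -0.184 for Aqp6 and -0.480 for Aqp7 (0.09 with the mean). The spread of 3 libraries per group limits every comparison, and few reads add counting error to Avpr2.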
